A study of Mus musculus with 7 samples.

Results

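The heat shock and chaperone genes examined here were the 10 genes Hsp90aa1, Hsp90ab1, Hspa4, Hspa5, Hspa8, Hsph1, Hspd1, Hspe1, Dnaja1 and Dnajb1. They were taken by symbol, as the rows so named in the deposited tables, and the rule used no measured value. The members were nevertheless chosen with earlier results of these data known. All 10 were found among the 41567 genes of the table of 4 unsheared libraries and among the 22814 genes of the table of 3 sheared libraries, and they took up 233 of the 437023 exon pieces in the exon table, which covers the unsheared libraries. All 10 passed the filter on low values in both gene tables.

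Every library was made from RNA of hippocampal area CA2, captured by laser microdissection from naive male Amigo2-GFP C57BL/6 mice aged 6 weeks, a line in which GFP marks CA2 neurons. The 4 unsheared libraries crossed the NuGEN or the Clontech SMARTer library kit with RNA extracted by the PicoPure kit, which gave lower quality RNA, or by the QIAGEN kit, which gave higher quality RNA: NuGEN PicoPure, NuGEN QIAGEN, Clontech PicoPure and Clontech QIAGEN. The other 3 libraries were sheared NuGEN QIAGEN libraries amplified for 16, 18 or 20 PCR cycles, from a separate cohort, and their column names give a different mouse for each, so mouse and cycle number cannot be told apart. There was 1 library for each combination, so no value has a replicate, and the p-values below compare these libraries only. In the study's own within-animal test of extraction the PicoPure kit was used on the neighbouring area CA1, whereas the labels of these libraries name CA2 for all.

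On GRCm38 the genes lie on separate chromosomes apart from Hspd1 and Hspe1, which neighbour each other on chromosome 1. Hsp90aa1 lies at chr12:110690605-110702728 and Hsp90ab1 at chr17:45567775-45573271, both on the minus strand, as are Hspa4 at chr11:53259814-53300457 and Hsph1 at chr5:149614287-149636376. On the plus strand lie Hspa8 at chr9:40800984-40810087, Hspa5 at chr2:34771970-34777547, Dnaja1 at chr4:40722150-40737149 and Dnajb1 at chr8:83608193-83612653.

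Chaperones bind unfolded or partly folded proteins and help them reach, or return to, their working shape. In the cytosol, J-domain proteins such as Dnaja1 and Dnajb1 deliver clients to the Hsp70 proteins, of which Hspa8 is the constitutive form, the Hsp110 proteins Hsph1 and Hspa4 exchange the nucleotide that Hsp70 holds, and clients may pass on to the Hsp90 proteins Hsp90aa1 and Hsp90ab1. Hspd1 and Hspe1 form the barrel and the lid of the mitochondrial chaperonin, and Hspa5, also called BiP, is the Hsp70 protein of the endoplasmic reticulum. Neurons hold large amounts of the constitutive forms, and several of the genes also respond to heat shock factor when unfolded proteins build up.

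The exon table allows the counts to be followed along each gene, and 6 coding exons are shown because they mark how far a kit difference varied within a gene. For Hsph1, Hspd1 and Hspa4, these were the exons with the lowest and the highest NuGEN minus Clontech difference among coding exons of up to 300 bases that averaged at least 50 normalized counts and were undivided both in the table and in the annotation, where they had to equal an exon of the transcript used (Hsph1 exon 14, named with its counts further on, did not); they were chosen after their values were seen. They are given 5′ to 3′ on the strand of the gene, from the GENCODE vM21 transcripts on GRCm38. In the exons 2 of Hsph1 and Hspa4, capitals mark the bases that are identical when the 2 exons are laid side by side without a gap.
Hsph1 exon 10 (chr5:149627536-149627642, minus strand): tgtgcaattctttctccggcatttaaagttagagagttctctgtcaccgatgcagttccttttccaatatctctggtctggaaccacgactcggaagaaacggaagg
Hsph1 exon 2 (chr5:149633830-149633887, minus strand): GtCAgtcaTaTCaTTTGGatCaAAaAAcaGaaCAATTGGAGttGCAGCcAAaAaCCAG
Hspa4 exon 2 (chr11:53292257-53292314, minus strand): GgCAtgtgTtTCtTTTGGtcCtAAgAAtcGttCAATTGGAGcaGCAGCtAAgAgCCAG
Hspa4 exon 17 (chr11:53262880-53262999, minus strand): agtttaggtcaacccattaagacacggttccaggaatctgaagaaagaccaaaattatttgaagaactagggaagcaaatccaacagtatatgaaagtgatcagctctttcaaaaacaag
Hspd1 exon 6 (chr1:55082058-55082151, minus strand): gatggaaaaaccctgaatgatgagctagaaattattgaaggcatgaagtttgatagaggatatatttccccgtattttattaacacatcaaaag
Hspd1 exon 8 (chr1:55081073-55081172, minus strand): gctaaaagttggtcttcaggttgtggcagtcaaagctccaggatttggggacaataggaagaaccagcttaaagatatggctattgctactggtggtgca

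The exons 2 of the Hsp110 genes Hsph1 and Hspa4 have the same length, 58 bases, and share 38 of them (65.5%), yet they stood on opposite sides of the kit comparison. Hsph1 exon 2 had 279.9 normalized counts in NuGEN PicoPure and 351.2 in NuGEN QIAGEN, against 169.1 in Clontech PicoPure and 140.0 in Clontech QIAGEN. Hspa4 exon 2 had 41.5 and 21.5 in the NuGEN libraries, against 137.0 and 183.1 in the Clontech libraries, in the same order of RNA samples. Neither exon overlapped between kits, and the log2 difference, NuGEN minus Clontech, was 1.02 for Hsph1 exon 2 and -2.37 for Hspa4 exon 2. Within Hsph1, exon 10 had 62.2 and 55.2 normalized counts in NuGEN PicoPure and NuGEN QIAGEN, against 354.2 and 216.8 in Clontech PicoPure and Clontech QIAGEN, a log2 difference of -2.22. Within Hspd1, exon 6 had 51.8 and 29.1 in the NuGEN libraries, against 103.6 and 116.9 in the Clontech libraries, whereas exon 8 had 72.6 and 113.5 in the NuGEN libraries, against 46.1 and 26.9 in the Clontech libraries. Hspa4 exon 17, the exon of that gene with the highest difference among those eligible, overlapped between kits, at 221.6 and 210.1 normalized counts in the NuGEN libraries, against 149.7 and 252.5 in the Clontech libraries. These values are descriptions of exons picked for their difference and carry no test.

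Together the 10 genes took 0.464% of the reads in NuGEN PicoPure and 0.481% in NuGEN QIAGEN, against 0.537% in Clontech PicoPure and 0.578% in Clontech QIAGEN. In the sheared libraries their share was 0.822%, 0.774% and 0.827% at 16, 18 and 20 cycles. Reads assigned to genes numbered 5194138 and 4548002 in NuGEN PicoPure and NuGEN QIAGEN, 10417443 and 10176710 in Clontech PicoPure and Clontech QIAGEN, and 33239387 to 39256039 in the sheared libraries. The same normalized count therefore rests on more reads in the Clontech libraries than in the unsheared NuGEN libraries, though not every member had more reads there. The smallest count behind a gene-level value of a member in the unsheared libraries was that of Hspe1 in Clontech PicoPure, 129 reads. The CA2 markers Rgs14 and Amigo2 were abundant, Rgs14 between 3465 and 4649 normalized counts and Amigo2 between 2237 and 3065. The 7 of 10 listed CA2 markers with values in the unsheared table summed to 9781 and 10297 in the NuGEN libraries, against 9589 and 10170 in the Clontech libraries, and markers of astrocytes, oligodendrocytes and interneurons were also present, so that the captured tissue held other cells; in such tissue, fewer cells of a type and less RNA per cell cannot be told apart. The 5 choroid plexus markers summed to 81.4 and 46.6 in the NuGEN libraries, against 79.5 and 46.3 in the Clontech libraries, with Folr1 at 0 in all 4.

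The levels of the members spanned a wide range, and the order below is by normalized counts per kilobase of a single GENCODE vM21 transcript of each gene. Hsp90ab1, the constitutive cytosolic Hsp90 gene, lay between 4691 and 5746 normalized counts per kilobase in the 4 unsheared libraries, and Hspa8 between 3327 and 5273, so these neighbours in the order overlapped. Hsp90aa1, the more inducible Hsp90 gene, followed at 1117 to 1845 and overlapped with no other member. Hsph1 (415 to 879.8) and Hspa4 (270.2 to 568) overlapped with each other, and Hspd1 lay in a narrow band, at 256 to 297 normalized counts per kilobase, whose upper end reached into the range of Hspa4. Hspe1 (103 to 437), Dnaja1 (74.4 to 360) and Hspa5 (114 to 252) overlapped with one another. The band of Hspd1 lay within the ranges of Hspe1 and Dnaja1. Both of these ranges also reached into that of Hspa4, and the range of Hspe1 into that of Hsph1. Dnajb1, the J-domain partner known for its response to heat, was lowest at 35.6 to 90.9, a range that met only that of Dnaja1. In the sheared libraries, whose table was normalized separately, Hspa8 and Hsp90ab1 again held the highest levels per kilobase and Dnajb1 the lowest.

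**Figure D1:**
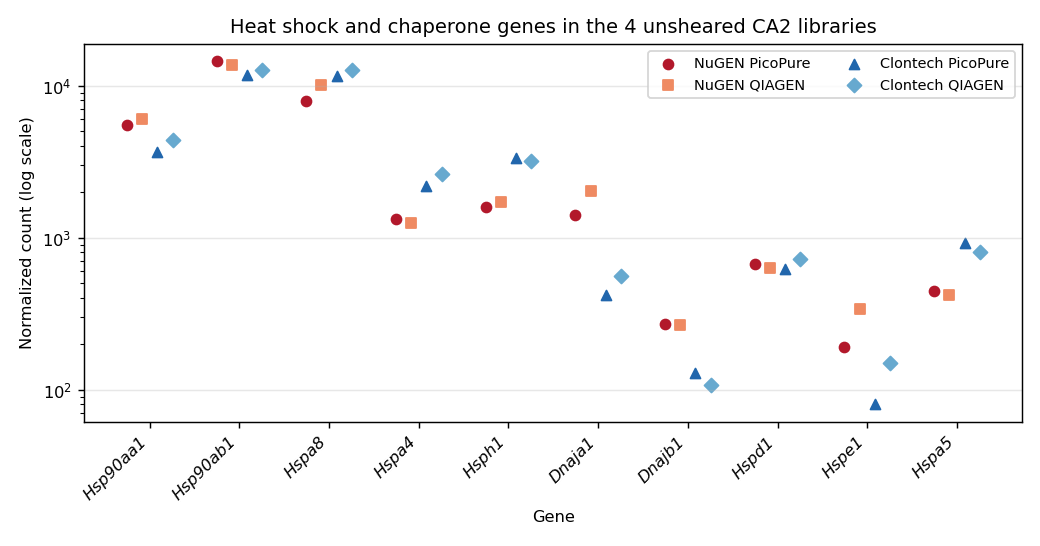
Normalized counts (log scale) of the 10 genes in the 4 unsheared libraries, 1 point per library, NuGEN libraries in red and orange and Clontech libraries in dark and light blue. Dnaja1, Dnajb1 and Hspe1 lay higher in both NuGEN libraries than in both Clontech libraries, Hspa4, Hsph1 and Hspa5 lay lower, and the points of Hspd1 overlapped.

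The comparison of library kits asked how far the chemistry of library generation changed the measured level of each gene when the RNA was the same. Of the 10 members, 4 were called higher and 4 lower in NuGEN libraries by limma across all 13044 genes tested, with an adjusted p under 0.05 and the RNA sample as an additive term. Over all genes, 10.8% were called higher and 10.5% lower, and the median log2 difference was 0.08 for the members and -0.04 for all genes tested. The fold changes are on the scale of log2(normalized count + 1).

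Both J-domain genes rose in NuGEN libraries. Dnaja1, which brings unfolded clients to cytosolic Hsp70, had 1417 normalized counts in NuGEN PicoPure and 2022 in NuGEN QIAGEN, against 418 in Clontech PicoPure and 557 in Clontech QIAGEN. The lowest NuGEN value was well above the highest Clontech value, and the difference was 1.81 ± 0.171 on the log2 scale (SE), or 3.50-fold higher, with an adjusted p of 1.03e-10 by limma. Dnajb1 had 272 and 268 in NuGEN PicoPure and NuGEN QIAGEN, against 128 and 107 in Clontech PicoPure and Clontech QIAGEN, again without overlap, a difference of 1.20 ± 0.351 (SE, limma adjusted p = 0.0109). The table also has a pseudogene row bearing the name of Dnaja1. It held 130.6 and 9.995 normalized counts in NuGEN PicoPure and NuGEN QIAGEN, against 152.7 and 162.6 in Clontech PicoPure and Clontech QIAGEN. Reads of near-identical copies may thus have been divided between rows, and the level of Dnaja1 is uncertain. Pseudogenes of all members were sought by symbol only, so copies under other names were not counted and this row does not limit that uncertainty.

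The Hsp70 gene Hspa8 and both Hsp110 genes fell in NuGEN libraries. Hspa8 had 7964 and 10065 normalized counts in NuGEN PicoPure and NuGEN QIAGEN, against 11532 and 12623 in Clontech PicoPure and Clontech QIAGEN, a small difference of -0.43 ± 0.0951 (SE, limma adjusted p = 0.000766) in which both NuGEN values lay below both Clontech values. Hsph1 had 1580 and 1716 in the NuGEN libraries, against 3345 and 3183 in the Clontech libraries, a difference of -0.99 ± 0.129 (SE, limma adjusted p = 1.79e-07). Hspa4 had 1321 and 1248 in the NuGEN libraries, against 2200 and 2623 in the Clontech libraries, a difference of -0.90 ± 0.141 (SE, limma adjusted p = 4.86e-06). Hsph1 was thus 1.98-fold and Hspa4 1.87-fold lower in NuGEN libraries, and in neither did the kits overlap.

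The cytosolic Hsp90 genes were both nominally higher in NuGEN libraries, and only Hsp90aa1 passed the test. Hsp90aa1 had 5475 normalized counts in NuGEN PicoPure and 6052 in NuGEN QIAGEN, against 3665 in Clontech PicoPure and 4373 in Clontech QIAGEN, a difference of 0.52 ± 0.108 (SE, limma adjusted p = 0.000343). Hsp90ab1 had 14480 and 13670 in NuGEN PicoPure and NuGEN QIAGEN, against 11821 and 12671 in Clontech PicoPure and Clontech QIAGEN. The kits did not overlap for Hsp90ab1 or Hsp90aa1, but the difference of 0.20 ± 0.0915 (SE) did not pass (limma adjusted p = 0.118).

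The pair that builds the mitochondrial chaperonin divided. Hspe1, the lid, had 191 and 338 normalized counts in NuGEN PicoPure and NuGEN QIAGEN, against 80.1 and 149 in Clontech PicoPure and Clontech QIAGEN, a difference of 1.21 ± 0.363 (SE, limma adjusted p = 0.0131) that was called higher. Hspd1, the barrel, had 674 and 635 in NuGEN PicoPure and NuGEN QIAGEN, against 621 and 720 in Clontech PicoPure and Clontech QIAGEN, and the kits overlapped (-0.03 ± 0.193, limma adjusted p = 0.936). By symbol, Hspd1 has 3 pseudogene rows, with 35.1 and 9.995 normalized counts in all in NuGEN PicoPure and NuGEN QIAGEN, against 39.1 and 12.2 in Clontech PicoPure and Clontech QIAGEN. The 4 of Hspe1 held at most 0.621. The genes lie head to head on chromosome 1, Hspd1 at 55077835 to 55088243 on the minus strand and Hspe1 at 55088132 to 55091307 on the plus strand of GRCm38, and their 5′ ends overlap. Whether the counting used strand is not given in the sources used here, and without strand the reads of that overlap cannot be told apart. Hspa5, the Hsp70 of the endoplasmic reticulum, fell to 446.5 and 419.8 in NuGEN PicoPure and NuGEN QIAGEN, against 927 and 808 in Clontech PicoPure and Clontech QIAGEN (-0.997 ± 0.197, limma adjusted p = 0.0002).

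**Figure D2:**
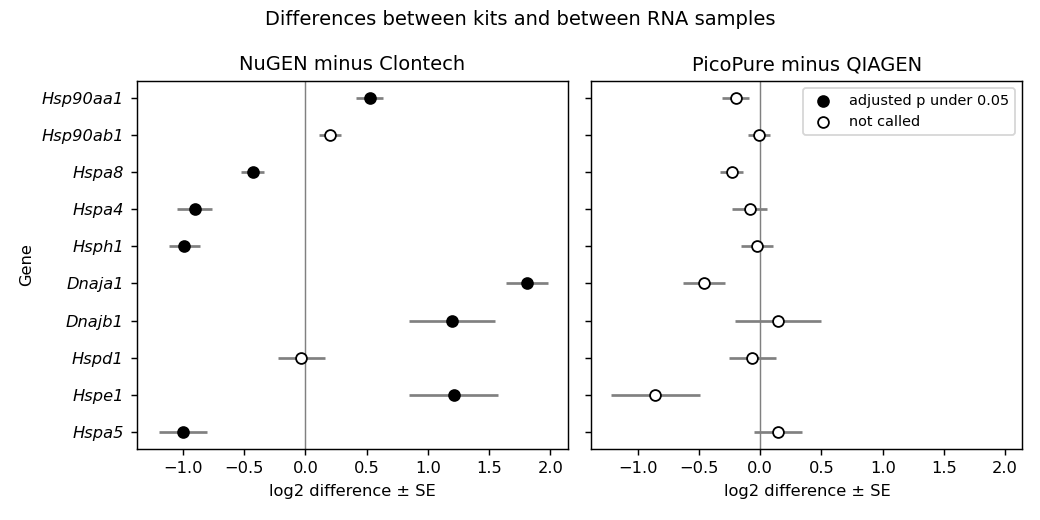
Log2 differences of the 10 genes with their standard errors from the limma fit of the 4 unsheared libraries, NuGEN minus Clontech at left and PicoPure minus QIAGEN at right, with filled points for an adjusted p under 0.05. In the kit comparison 4 genes stand to the right of 0 and 4 to the left as filled points, and no gene is filled in the RNA comparison.

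The kit differences of the 8 called genes had the same sign in PicoPure RNA as in QIAGEN RNA. The calls rest on the mean of those same differences, so a gene with opposite signs could hardly be called, and the agreement is no support. Dnaja1 differed by 1.76 in PicoPure RNA and 1.86 in QIAGEN RNA, Hsph1 by -1.08 and -0.89, and Hspa5 by -1.05 and -0.94, all on the log2 scale and with no test, since each rests on a pair of libraries. With only the kit in the model, 1 member was called higher and 3 lower, and with any library left out none was called by limma. In those fits of 3 libraries, which share their libraries with the fit behind the calls, the RNA sample was also dropped from the model. The RNA samples were then unbalanced between kits, so the values mix kit and RNA sample. The differences of the 8 genes kept their sign. They stayed between -1.05 and -0.927 for Hsph1 and between 1.55 and 2.06 for Dnaja1. That of Hspe1 was 0.799 without NuGEN QIAGEN and 0.765 without Clontech PicoPure, and that of Hspa8 was -0.261 without NuGEN PicoPure. Within RNA samples the kit difference of Hspe1 was 1.24 in PicoPure RNA and 1.18 in QIAGEN RNA. That of Hspa8 was -0.53 in PicoPure RNA and -0.33 in QIAGEN RNA. The counts of exon pieces summed over each gene gave 5 higher and 2 lower, since Hspa8 and Hsph1 lost their calls and Hsp90ab1 gained one. Taking the highest exon piece of each gene instead gave 4 higher and 3 lower: Hspa4 (-0.595, limma adjusted p = 0.0839) and Dnajb1 (1.07, limma adjusted p = 0.0586) lost their calls, and Hsp90ab1 gained one (0.581, limma adjusted p = 0.0053). Markers of other cells moved with the kit as well: oligodendrocyte markers summed to 4177 and 6767 in the NuGEN libraries, against 2948 and 4339 in the Clontech libraries, and 2 of the 7 were called higher, as were 3 of 8 interneuron markers. In the other direction, 2 of 7 tested CA2 markers, Amigo2 and Map3k15, and 1 of 7 astrocyte markers, Slc1a2, were called lower in NuGEN libraries. Both kits were used on the same RNA samples, so these marker differences do not measure which cells were captured. What lay behind them was not tested.

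The exon table showed that the kit difference was not the same along a gene. A member's exon is counted here by its exon number, with its pieces summed and each gene's exons numbered from the 5′ end. A read is counted in every piece it covers, and this multiple counting differed by kit. For every member, both NuGEN libraries had more exon counts per read than both Clontech libraries. Hsph1 had 3.46 and 3.86 in NuGEN PicoPure and NuGEN QIAGEN, against 2.08 and 2.12 in Clontech PicoPure and Clontech QIAGEN. Over all genes, exon counts numbered 9285130 and 8682712 in the NuGEN libraries, beside 5194138 and 4548002 gene reads. In the Clontech libraries they numbered 15390814 and 16701803, beside 10417443 and 10176710 gene reads. The share of all genes with this pattern was not counted, so it does not set the members apart. Exon shares and summed exon counts carry this difference, and its part in them was not tested. Of the 95 exon numbers of the members, 88 averaged at least 50 normalized counts, and both NuGEN libraries lay above both Clontech libraries in 29 and below both in 44. Among all 39183 exons of that depth, 35.5% lay above and 35.7% below, so a share of exons without overlap was common in these libraries. The members differed in how those exons were arranged.

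In Hsp90aa1 the kit difference changed sign along the gene. Exons 2 to 6 were higher in both NuGEN libraries than in both Clontech libraries, by 1.34 to 3.13 on the log2 scale, and exons 7 to 11 were lower in both, by -0.20 to -1.28. Exon 3 took 36.0% and 26.7% of the gene's exon counts in NuGEN PicoPure and NuGEN QIAGEN, against 9.78% and 9.59% in Clontech PicoPure and Clontech QIAGEN. Exon 10 took 3.67% and 4.47% in the NuGEN libraries, against 16.2% and 19.2% in the Clontech libraries. The gene-level difference of Hsp90aa1 therefore combined exons of both directions. Exon 1 held almost no counts, 14.7 normalized counts in Clontech PicoPure and 0 in the other 3 libraries; for the NuGEN libraries that allows a share of up to 0.0305% in NuGEN PicoPure and 0.0339% in NuGEN QIAGEN.

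In Hsph1 the first exon stood apart from the rest. Exon 1 held 41.6% of exon counts in NuGEN PicoPure and 49.9% in NuGEN QIAGEN, against 3.89% in Clontech PicoPure and 3.51% in Clontech QIAGEN. The exon is cut into pieces a to j, so a read can enter its share several times. Piece i had 456.1 and 651.7 normalized counts in the NuGEN libraries, against 36.1 and 30.6 in the Clontech libraries. Piece j had 360.3 and 475.4, against 163.7 and 128.7. Of its 17 exons with enough counts, 2 were higher in both NuGEN libraries and 13 lower in both, so the fall of the gene as a whole was carried by exons beyond the first ones. Exon 14 had 180.1 and 128.8 normalized counts in the NuGEN libraries, against 753.2 and 999.2 in the Clontech libraries. Hspd1 likewise had its NuGEN counts toward the 5′ end: exon 2 held 30.9% and 27.8% in NuGEN PicoPure and NuGEN QIAGEN, against 7.62% and 7.68% in Clontech PicoPure and Clontech QIAGEN, and its last exon, exon 12, held 3.91% and 2.08% in the NuGEN libraries, against 13.1% and 10.1% in the Clontech libraries. Of 12 exons of Hspd1, 4 were higher in both NuGEN libraries and 6 lower in both, and the gene-level counts overlapped.

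Dnaja1 and Hspe1 moved one way along their length. All 8 exons of Dnaja1 with enough counts were higher in both NuGEN libraries. Exon 3 of Dnaja1 held 9.33% and 5.73% of exon counts in NuGEN PicoPure and NuGEN QIAGEN and had 0 counts in Clontech PicoPure and Clontech QIAGEN, which allows shares of up to 0.222% and 0.176%. Exon 2 of Dnaja1 had 663.5 and 987.6 normalized counts in the NuGEN libraries, against 41.4 and 35.6 in the Clontech libraries, while its last exon differed much less, at a log2 difference of 0.71. Hspe1 had 3 of 4 exons higher in both NuGEN libraries and none lower, with differences between 1.13 and 1.88.

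Hspa4 and Hspa5 were lower in NuGEN libraries over most of their length. In Hspa4, 14 of 17 exons were lower in both NuGEN libraries and none was higher in both, from a log2 difference of -2.37 at exon 2 to 0.17 at exon 16. In Hspa5, 4 of 7 exons were lower in both, and exon 4 held 9.17% and 8.88% of exon counts in NuGEN PicoPure and NuGEN QIAGEN, against 33.5% and 41.4% in Clontech PicoPure and Clontech QIAGEN. In Hsp90ab1, exon 3 held 49.1% and 53.2% in the NuGEN libraries, against 27.3% and 28.4% in the Clontech libraries, whereas exon 7 held 5.42% and 5.69%, against 31.4% and 31.5%. Hspa8 has only 2 exon numbers in the table, of which the second held 41.4% and 37.0% in NuGEN PicoPure and NuGEN QIAGEN, against 65.1% and 65.5% in Clontech PicoPure and Clontech QIAGEN. Within it, piece g had 904.5 and 1034 normalized counts in the NuGEN libraries, against 4996 and 5279 in the Clontech libraries, and piece l had 624.6 and 513.7, against 152.4 and 128.7.

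**Figure D3:**
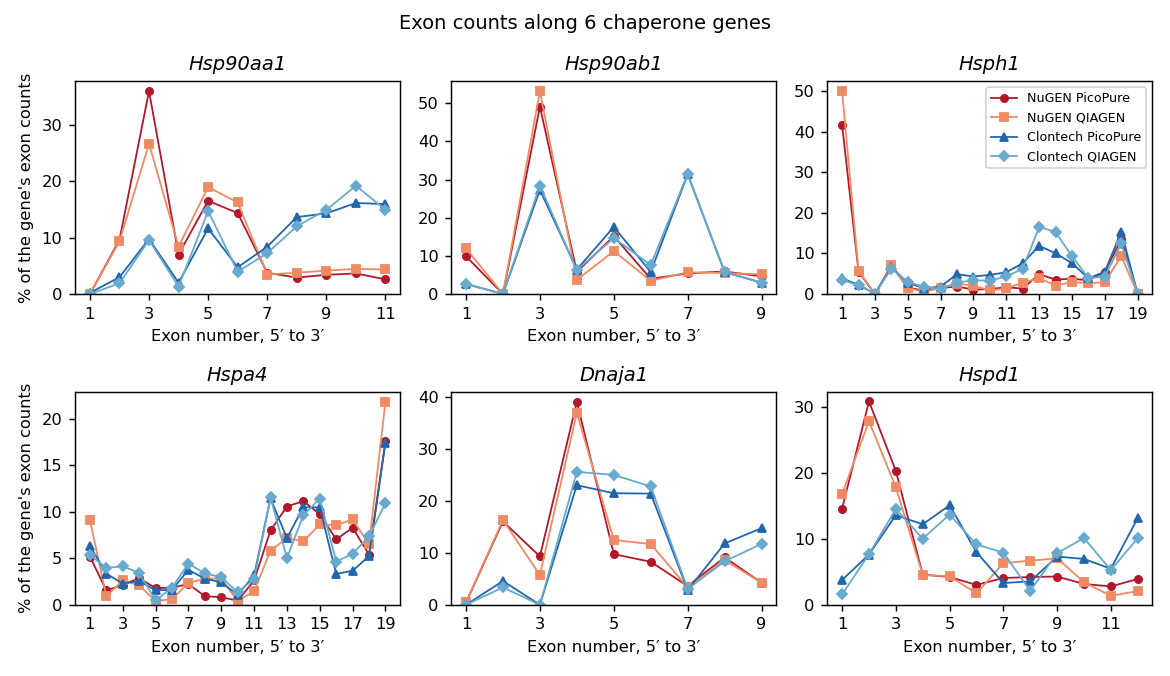
Share of each gene's exon counts, in percent, by exon number from 5′ to 3′ for 6 of the genes, 1 line per unsheared library, NuGEN in red and orange and Clontech in blue. The NuGEN lines of Hsp90aa1, Hsph1 and Hspd1 peak near the 5′ end, where Hsph1 exon 1 holds 41.6% and 49.9%.

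The shares of the first and the last exon were tested for the 9 members with at least 3 exon numbers and 100 exon counts in every library, Hspa8 being left out. In 7 of the 9, both NuGEN libraries had a higher first-exon share than both Clontech libraries, against 64.2% of the 6853 genes tested. In 4 of the 9, both NuGEN libraries had a lower last-exon share, against 39.8% of all genes. Some of these exons were almost empty, under 1% of the gene's exon counts in every library: the first exons of Hsp90aa1 and Dnaja1 and the last exon of Hsph1. The limit of 1% was chosen after these values were seen. Exon 1 of Dnaja1 had 18.1 and 29.1 normalized counts in NuGEN PicoPure and NuGEN QIAGEN, against 0 in both Clontech libraries. Without such exons, 6 of 7 members had the higher first-exon share, against 72.5% of 6020 genes, and 4 of 8 the lower last-exon share, against 41.4% of 6566 genes, shares that do not set the members apart. The log2 difference in first-exon share, NuGEN minus Clontech, was 4.45 for Hsph1, 2.85 for Hspd1, 2.69 for Dnajb1, 2.17 for Hsp90ab1 and 1.58 for Hspa5, each as the log of the exon's counts over those of the other exons. The shares of Hspa4 overlapped (5.18% and 9.10% in NuGEN PicoPure and NuGEN QIAGEN, against 6.34% and 5.36% in Clontech PicoPure and Clontech QIAGEN). No difference of a member or of any other gene was called by limma in either direction (0.0% of all genes). At an unadjusted p under 0.05 were 4 of the 7 members for the first exon, beside 2787 of 6020 genes, and 4 of the 8 for the last, beside 1792 of 6566 genes. The smallest adjusted p over all genes was 0.0646 for the first exon, and at a minimum of 500 exon counts 5 members were called higher, the near-empty exon of Dnaja1 among them, and 1498 of 3015 genes were called in either direction.

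Between RNA samples, the question was how extraction, and with it RNA quality, changed the counts. None of the 10 members was called by limma, in a comparison in which 1.45% of all genes were called higher and 0.314% lower in PicoPure RNA. At an unadjusted p under 0.05 there were 3 of the 10 members, all lower in PicoPure RNA, beside 1634 of the 13044 genes, and edgeR and DESeq2 on recovered reads called 0. The median log2 difference, PicoPure minus QIAGEN, was -0.07 over the members and -0.03 over all genes tested.

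Hspe1 had the widest gap between RNA samples. It had 191 normalized counts in NuGEN PicoPure and 80.1 in Clontech PicoPure, against 338 in NuGEN QIAGEN and 149 in Clontech QIAGEN, that is -0.82 within NuGEN libraries and -0.89 within Clontech libraries on the log2 scale, or -0.86 ± 0.363 in the fit (SE, limma adjusted p = 0.306). With a library left out and the kit dropped from the model, that value ran from -1.48 without NuGEN PicoPure to -0.233 without Clontech PicoPure. The kits were then unbalanced between RNA samples, so this range mixes RNA sample and kit. Dnaja1 had 1417 and 418 in NuGEN PicoPure and Clontech PicoPure, against 2022 and 557 in NuGEN QIAGEN and Clontech QIAGEN (-0.46 ± 0.171, limma adjusted p = 0.215). Hspa8 had 7964 and 11532 in the PicoPure libraries, against 10065 and 12623 in the QIAGEN libraries (-0.23 ± 0.0951, limma adjusted p = 0.278). In each of these, the PicoPure library was the lower of the pair made with either kit, and the difference did not pass the test. The remaining 7 members had fitted differences between -0.20 for Hsp90aa1 and 0.14 for Dnajb1, and their standard errors ran from 0.0915 to 0.351. CA1 markers moved with the RNA sample: the 8 listed summed to 1452 and 1393 normalized counts in the PicoPure libraries, against 922.9 and 695.6 in the QIAGEN libraries, with 1 of 7 tested called higher in PicoPure RNA, and oligodendrocyte markers were lower, with 2 of 7 called. Their part in the differences of the chaperone genes was not tested. For neither end of the gene did any member's exon share have an unadjusted p under 0.05 between RNA samples, and 0.0% of all genes were called by limma.

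The sheared libraries were compared over PCR cycles to ask whether added amplification changed the counts. None of the 10 members had a slope that limma called, edgeR and DESeq2 called 0 as well, and 0.044% of the 13639 genes tested were called with a higher and 0.0733% with a lower slope. Among the members, Hspa5 alone had an unadjusted p under 0.05, as did 620 of all genes. It had 4360, 3565 and 5487 normalized counts at 16, 18 and 20 cycles, without a steady order, and a fitted slope of 0.08 ± 0.0358 on the log2 scale per cycle (SE, limma adjusted p = 0.909). Hspa8 had 86794, 83974 and 88918, and Hsp90aa1 had 63707, 62439 and 64377, at 16, 18 and 20 cycles. Those genes had some of the steadiest counts, with coefficients of variation of 2.87% for Hspa8 and 1.55% for Hsp90aa1. Dnaja1 had 18296, 17321 and 17554, Hsp90ab1 79025, 69876 and 76219, Hsph1 16209, 14442 and 16260, and Hspa4 10708, 10572 and 11596. For 9 of the 10 genes the library of 18 cycles was the lowest. How many of all genes were lowest there was not counted, so this does not set the members apart. The library of 18 cycles also held 3376 normalized counts of the 5 listed choroid plexus markers, against 522.9 at 16 and 591.2 at 20 cycles, whose part in the counts was not tested. Hspd1 (7183, 7475 and 8026) was the member with an increase at each step, a slope of 0.04 ± 0.0287 (SE, limma adjusted p = 1). Hspe1 had 2946, 2716 and 2789, and Dnajb1 had 1134, 910 and 941 normalized counts. The coefficient of variation over the 3 libraries had a median of 5.37% over the members and 7.56% over the 7776 genes with a mean of at least 500 normalized counts, and it was highest for Hspa5, at 21.6%, followed by Dnajb1, at 12.2%.

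**Figure D4:**
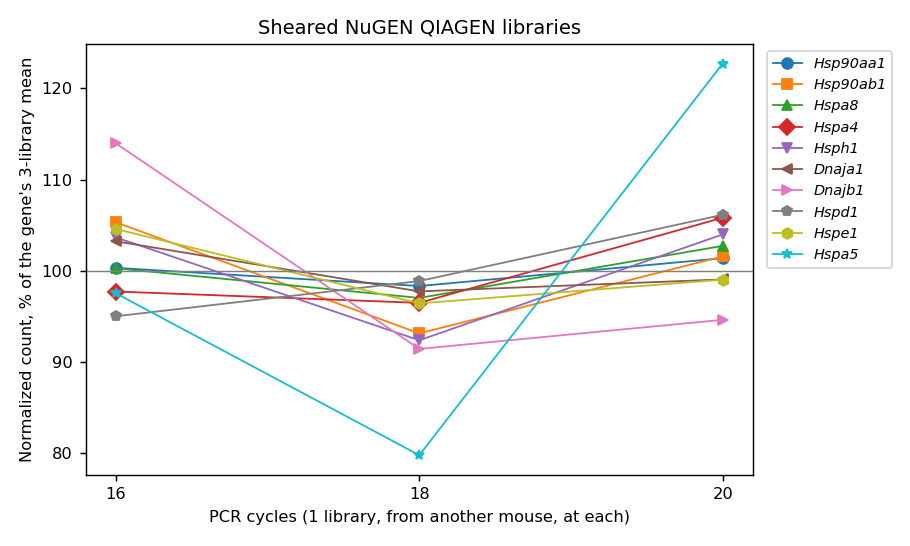
Normalized counts of the 10 genes in the 3 sheared NuGEN QIAGEN libraries, as a percentage of each gene's mean over the 3, by PCR cycles; each point is 1 library from a mouse of its own. Hspa5 has the widest spread, with a coefficient of variation of 21.6%, and Hsp90aa1 the narrowest, at 1.55%.

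Sheared and unsheared NuGEN QIAGEN libraries were set side by side as reads scaled to a common total per library (RPM), since their tables were normalized separately. They came from separate cohorts, so shearing and cohort cannot be told apart, and with 1 unsheared library there was no test. Hsp90aa1 had 1804, 1768 and 1821 RPM at 16, 18 and 20 cycles, against 798.8 in the unsheared library, 2.25-fold on average. Hspd1 had 203.4, 211.7 and 227.0 in the sheared libraries, against 83.8 in the unsheared library, 2.55-fold on average. Those 2 members were at least 2-fold higher in all 3 sheared libraries, as were 14.5% of the 11600 genes in both tables. Hspa5 had 123.5, 101.0 and 155.2 in the sheared libraries, against 55.4 in the unsheared library, and was under 2-fold in the library of 18 cycles only. The same held for Hsph1, at 459.1, 409.0 and 460.0 RPM, against 226.5. Dnajb1 was the one member lower in every sheared library, at 32.1, 25.8 and 26.6 RPM, against 35.4. Hsp90ab1 was nearly level, at 2238, 1979 and 2156, against 1804. Hspa8, Hspa4, Hsph1, Dnaja1 and Hspe1 had mean folds between 1.78 and 1.95, and the median fold was 1.88 over the members and 1.21 over all genes in both tables.

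**Figure D5:**
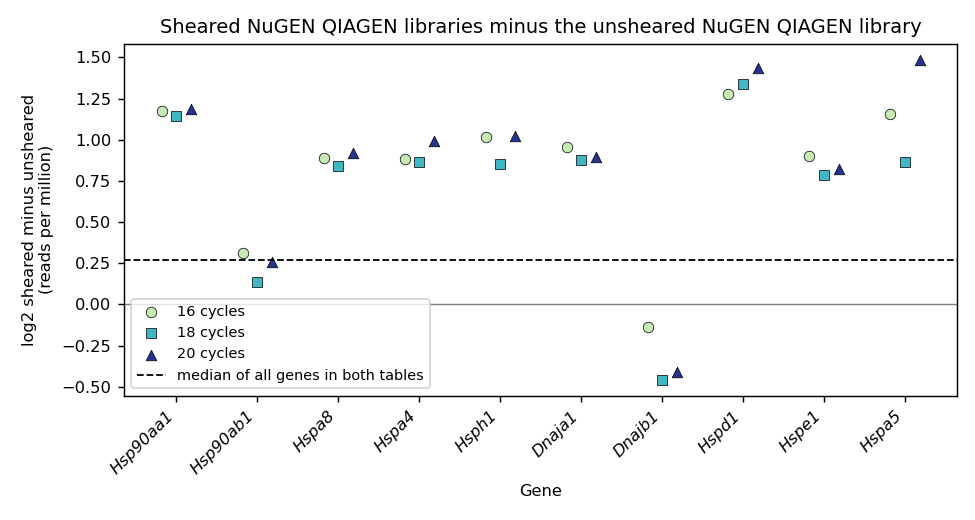
Log2 difference in RPM between each sheared NuGEN QIAGEN library (16, 18 or 20 cycles) and the unsheared NuGEN QIAGEN library for the 10 genes, with the median of all genes in both tables as a dashed line. Dnajb1 lies below 0 in all 3 libraries, Hsp90ab1 lies near the dashed line, and the other 8 genes lie above it.

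Of 113 further genes of protein folding, 105 were tested between kits, and 21 were called higher and 18 lower in NuGEN libraries by limma, with a median log2 difference of -0.08. Genes of the chaperonin TRiC, the cytosolic barrel that folds actin and tubulin, were called in 1 direction: 5 of 8 were lower and none higher. Cct5 among them had 456.3 and 676.3 normalized counts in NuGEN PicoPure and NuGEN QIAGEN, against 1037 and 1280 in Clontech PicoPure and Clontech QIAGEN (-1.05, limma adjusted p = 2.3e-05). Tcp1 had 433.9 and 434.8, against 749.2 and 995.1 (-0.99, limma adjusted p = 0.000262). Prefoldin hands newly made chains to TRiC, and 2 of its 5 tested subunit genes were higher and none lower. Pfdn6 had 297.7 and 393.1 in the NuGEN libraries, against 52.8 and 27.0 in the Clontech libraries (3.14, limma adjusted p = 1.46e-06), and Pfdn1 had 297.7 and 426.5, against 98.7 and 84.9 (1.95, limma adjusted p = 5.65e-05).

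Genes close to the members in role also went both ways between kits. Among the 10 tested Hsp70 and Hsp110 genes that were not members, 1 was higher and 2 lower: Hspa2 had 1324 and 1588 normalized counts in NuGEN PicoPure and NuGEN QIAGEN, against 793.3 and 1147 in Clontech PicoPure and Clontech QIAGEN, whereas the mitochondrial Hsp70 gene Hspa9 had 633.2 and 736.3, against 1392 and 1286 (-0.97, limma adjusted p = 3.34e-05). Hsp90b1, the Hsp90 of the endoplasmic reticulum, had 737.1 and 1104 in the NuGEN libraries, against 2086 and 2058 in the Clontech libraries (-1.20, limma adjusted p = 1.83e-07), the same direction as Hspa5. Of 18 genes of endoplasmic reticulum chaperones and the unfolded protein response, 4 were higher, with Syvn1 at 499.9 and 544.7 against 178.8 and 175.5, and 4 lower, with Pdia4 at 103.9 and 101.6 against 210.4 and 287.4. J-domain genes gave 5 higher and 3 lower of 23, and the co-chaperones of Hsp70 and Hsp90 gave 6 higher and 2 lower of 22. Sgta, a co-chaperone that binds Hsp70, had 1251 and 1136 in the NuGEN libraries, against 522.6 and 590.8 in the Clontech libraries (1.10, limma adjusted p = 1.01e-05). Stip1, which joins Hsp70 to Hsp90, had 860.7 and 1344, against 571.1 and 650.6 (0.82, limma adjusted p = 0.00078). Hsbp1, a binding protein of heat shock factor, was the 1 of 5 heat shock factor genes called, at 1146 and 1499, against 289.3 and 330.4 (2.08, limma adjusted p = 8.28e-11). Of the small heat shock protein genes only 2 of 8 had enough counts, and Cryab was higher at 119.3 and 146.6, against 42.2 and 16.1 (2.29, limma adjusted p = 0.00738). Among 10 mitochondrial protein quality genes 1 was higher and 1 lower. None of the further genes was called between RNA samples, of 105 tested, or over PCR cycles, of 108 tested, and their medians were -0.11 between RNA samples and 0.02 per cycle on the log2 scale.

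The mean profile of the 10 members over the unsheared libraries, after centring each gene's log2 values, was almost flat: 0.00 in NuGEN PicoPure and 0.16 in NuGEN QIAGEN, against -0.17 in Clontech PicoPure and 0.01 in Clontech QIAGEN. The 5 genes of at least 100 normalized counts with the smallest root mean square distance to it, over 4 libraries, were Flywch1, Map4, Rab5b, Naa20 and Mnat1, at distances between 0.0237 and 0.0312 on the log2 scale. Flywch1 had 665.5 and 744.6 normalized counts in NuGEN PicoPure and NuGEN QIAGEN, against 571.1 and 654.4 in Clontech PicoPure and Clontech QIAGEN. Members that rose and members that fell between kits are averaged in this profile.

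The members differed in transcript length and base composition, whose part in their kit differences was not tested. Their GENCODE vM21 transcripts ran from 774 bases for Hspe1 to 5622 bases for Dnaja1, and these shortest and longest transcripts were both higher in NuGEN libraries. GC content ran from 41.2% for Dnaja1 to 52.7% for Dnajb1, which were both higher in NuGEN libraries too. Of 38 undivided coding exons of 7 members, 7 were higher and 31 lower in NuGEN libraries by the mean log2 difference. Across them, Spearman's rho of the kit difference was -0.19 with GC content and 0.05 with exon length. These values are a description, since exons of a gene share their transcript and their libraries.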

How the data were processed

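The deposited gene and exon tables hold normalized counts, a signal made by the authors: reads were aligned to mm10 with STAR 2.4.1d, assigned to genes or exon pieces by featureCounts and divided by DESeq2 size factors. Values were whole multiples of 1 read within 0.01 in 100% of cases, so the authors' read counts were recovered, and depths come from them. Each column was matched to its sample by name, and 0 columns were left unmapped. Symbols that had turned into dates, 26 in the sheared data, were dropped.

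The main test was limma 3.58.1 (lmFit, eBayes with trend; R 4.3.3) on log2(normalized count + 1), with Benjamini-Hochberg adjustment over all genes that reached 10 normalized counts in 2 or more libraries. Ribosomal and mitochondrial symbols did not enter (2.80% to 5.98% of unsheared and 1.70% to 2.06% of sheared reads). Kit and RNA sample were additive terms with 1 residual degree of freedom, so the spread of a gene was largely borrowed from other genes, and PCR cycles were a straight line. Alternatives used edgeR 4.0.16 and DESeq2 1.42.0 on recovered reads, other pseudocounts, filters and scalings, and left out each library. The scripts were tested on simulated data.

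All members are named, and from each list of other genes up to 4 called genes of largest difference, averaging at least 100 normalized counts, could be named, or the 2 most abundant where none met this (Cryab). Members and lists were chosen with earlier results of these data known. Limits for a count of 0 use 3 counts and cover counting error only. Exon numbers matched GENCODE vM21 in 8 of 10 members.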

Additional observations from a re-analysis of the deposited data

Results flagged for a closer look

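For 4 members the PicoPure minus QIAGEN difference took opposite signs in the 2 kits, each on 1 pair of libraries. NuGEN minus Clontech, the gap between those log2 differences was 0.336 for Hspa4, 0.300 for Hspd1, 0.183 for Hsp90ab1 and -0.191 for Hsph1. For Hspd1 the NuGEN minus Clontech difference likewise had opposite signs in the RNA samples, 0.12 in PicoPure RNA and -0.18 in QIAGEN RNA, a gap of 0.300. None of these gaps was tested, since a single library stood behind each value, and none of these RNA differences had been called.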

How the results depend on the processing

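The 8 kit calls of members stood in edgeR and DESeq2, but not in the fits that follow. With RNA sample dropped from the model, 1 member was higher and 3 lower, and 1145 genes were called; Hsp90aa1, Hspa8, Hspe1 and Dnajb1 were lost. With a library left out and the other factor dropped, 0 members were called either way and all genes called numbered 1 to 57. With exon counts summed, 2 members were lower (Hspa8 and Hsph1 lost), and with the highest exon piece Hspa4 and Dnajb1 lost their calls; Hsp90ab1 gained one in both. Hspd1, not called, had a kit difference of 0.00639 with TMM in limma, 0.00701 in edgeR with TMM, 0.409 with summed exon counts, 0.767 with the highest exon piece, and -0.138 to 0.0753 with a library left out. Between RNA samples, all genes called numbered 0 with kit dropped, 0 with summed exon counts, 1 with the highest exon piece and 0 with any library left out, and the differences of members were never called. Signs turned for Hsp90ab1 (0.0326 with TMM in limma, 0.0324 in edgeR with TMM, 0.0371 with summed exon counts), Hsph1 (0.0172 and 0.0205 with those TMM fits), Hspa4 (0.0259) and Hspd1 (0.0222) with summed exon counts, and Hspd1 (0.144) and Hspa5 (-0.288) with the highest exon piece. With a library left out the RNA difference ran from -0.489 to 0.0897 for Hsp90aa1, -0.155 to 0.138 for Hsp90ab1, -0.621 to 0.45 for Hspa4, -0.383 to 0.669 for Hspa5, -0.501 to 0.0329 for Hspa8, -0.565 to 0.517 for Hsph1, -0.154 to 0.0272 for Hspd1, -1.48 to -0.233 for Hspe1, -1.39 to 0.467 for Dnaja1 and -0.517 to 0.805 for Dnajb1; by construction the kits are then unbalanced between RNA samples. Over PCR cycles DESeq2 called 8 genes and limma 16, none a member. At 500 exon counts, 5 members were higher for the first exon (1498 genes called) and 3 lower for the last (765 genes called); with RNA sample dropped, 4 were higher for the first (1720 genes called), Dnaja1 with its near-empty exon among them in both. Other causes of these shifts were not tested. The kits were compared within RNA samples, as the RNA term pairs them, and the fits without that term are those with it dropped. Precision is limited by 1 library per combination and, for exons, by few reads in the NuGEN libraries.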
